A study of Saccharomyces cerevisiae with 4 samples.

Results

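The genes described here are the 54 budding yeast genes of glycolysis, pyruvate decarboxylation, the pentose phosphate pathway, trehalose and glycogen. They were chosen by name for their place in these pathways, and all 54 had a probe set with their gene symbol, out of 5343 genes measured in all. The study asked what the chromatin-remodeling complex RSC, whose ATPase is Nps1 (Sth1), does in cells that must respire. Cells of the mutant strain nps1-13 (BYI-3) and of WT (BY4743), grown first in glucose medium (YPD) at 28°C, were kept for 4 h in medium with ethanol and glycerol (YPEG), and total RNA was measured on a 1-colour Affymetrix yeast array, with 2 replicates of each strain. In the strain list of the study, BYI-3 is a MATa/α diploid homozygous for the temperature-sensitive allele nps1-13, which carries amino-acid substitutions in the bromodomain, and for met15Δ0. BY4743 is a MATa/α diploid with 1 deleted copy of MET15 (MET17) and 1 of LYS2. Both strains are listed as homozygous for his3Δ1, leu2Δ0 and ura3Δ0. Neither the labels nor the methods tell if replicate arrays hold RNA of separate cultures. The p-values then measure only the spread between these arrays, which may be technical, and in a bulk sample fewer cells with a transcript and less of it per cell cannot be told apart.

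Glycolysis breaks glucose down to pyruvate, which pyruvate decarboxylase turns toward ethanol. The pentose phosphate pathway has an oxidative branch, which makes NADPH, and a non-oxidative branch, which exchanges sugar phosphates with glycolysis. Glycogen is the glucose store of the cell, and trehalose is both a store and a protectant in stress. On ethanol and glycerol there is little glucose to break down, most glycolytic enzymes work in the direction of gluconeogenesis, and the storage sugars must be built from newly made hexose phosphate. Many of these steps are run by a pair of paralogs, of which 1 gene is the main form in glucose medium and the other is raised when glucose is low or in stress.

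The arrays differed in ways that touch these values. The median deposited signal was 2158 and 2024 on the nps1-13 arrays, against 3051 and 2770 on the WT arrays, and the median log2 fold change of the deposited signals over all genes was -0.41, for nps1-13 over WT. The shift depended on brightness: it was -0.18 for the 497 genes with a mean signal over 10000 and -0.46 for the 4846 others. Of the 54 genes, 28 had a mean signal over 10000. Fold changes are therefore given after quantile normalization, which gives all arrays the same distribution, beside those of the deposited signals and those with each array centred on its median. A gene is said to have risen or fallen only where it passed the test (limma, adjusted p under 0.05 over 5343 genes) in the same direction on all 3 scales. With the deposited signals shifted down, this rule is stricter for rises. After quantile normalization 1946 of all genes were higher and 2016 lower, of which 503 and 1657 passed on all 3 scales. The gene of the mutation, STH1 (NPS1), had a signal of 7419 and 6524 in nps1-13, against 5017 and 4373 in WT, and since the allele holds substitutions this level does not check the labels. MET17 (MET15), deleted in the mutant strain, averaged 16.9 ± 1.2 in nps1-13 and 3961 ± 110.2 in WT (SD, n = 2 each). The strains also differed in further markers. LEU2 had a signal of 4446 and 4225 on the nps1-13 arrays, against 14.0 and 37.1 on the WT arrays, although both strains are listed as leu2Δ0. The mating-type transcript a1 (HMRA1) had 0.9 and 6.1 in nps1-13, against 1599 and 1896 in WT, and the alpha-cell gene STE3 had 4113 and 4030, against 86.0 and 102, which goes against a MATa/α genotype of the mutant. What these differences contribute to the values below was not tested.

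**Figure D1:**
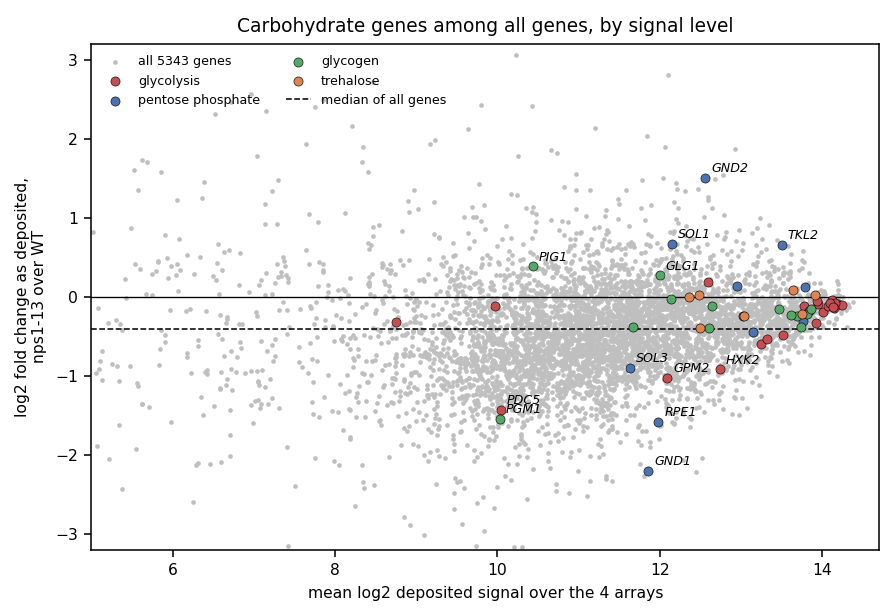
Log2 fold change of the deposited signals, nps1-13 over WT, against the mean log2 deposited signal over the 4 arrays (2 per strain), with the 54 carbohydrate genes coloured by pathway and all genes in grey. Of the 5343 genes, 84 lie outside the axes. The dashed line is the median of all genes at -0.41; most glycolytic genes crowd at the bright end near 0, while GND2 and GND1 stand farthest apart.

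On all 3 scales, 5 of the 54 genes rose in nps1-13 (9.26%, against 9.41% of all genes) and 7 fell (13.0%, against 31.0% of all genes). The genes that rose were GND2, SOL1, TKL2, PIG1 and GLG1, and those that fell were GND1, RPE1, PGM1, PDC5, GPM2, HXK2 and SOL3. The share that rose is near that of the whole array, and the share that fell is below it, which was not tested. By pathway, 6 of the 12 pentose phosphate genes moved, in both directions, against 3 of the 22 genes of glycolysis and pyruvate decarboxylase, 3 of the 13 of glycogen and UDP-glucose and 0 of the 7 of trehalose, where 40.4% of all genes moved in either direction. The pentose phosphate share of 50.0% is thus not far from that background, and the other shares lie below it; neither was tested. After quantile normalization alone, 16 genes were higher and 14 lower (29.6% and 25.9%, against 36.4% and 37.7% of all genes). The median log2 fold change of the 54 genes was 0.0077, beside -0.01 for all genes, and their median absolute value was 0.18, beside 0.33. The 54 genes are brighter than most: 53.7% had a mean WT signal over 10000, against 11.1% of all genes. The part of brightness in these values and shares was not tested. As deposited, 5 were higher (9.26%, against 9.41%) and 29 lower (53.7%, against 64.3%), and centred 37 were higher (68.5%, against 42.7%) and 7 lower (13.0%, against 34.6%). The quantile-normalized arrays of the strains did not overlap for 22 genes higher in nps1-13 (40.7%, against 43.0% of all genes) and 18 lower (33.3%, against 44.5%), and the deposited arrays for 9 higher (16.7%, against 13.6%) and 37 lower (68.5%, against 72.5%). With the ratio of mean quantile-normalized signals, GND2 and SOL1 were above 2 (3.70% of the 54, against 4.75% of all genes) and GND1 and RPE1 below 0.5 (3.70%, against 4.79%), though SOL1 did not pass 2 without WT replicate 1. With deposited signals, GND2 alone was above 2 (1.85%, against 1.98%), and GPM2, PDC5, GND1, RPE1 and PGM1 were below 0.5 (9.26%, against 16.7%).

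**Figure D2:**
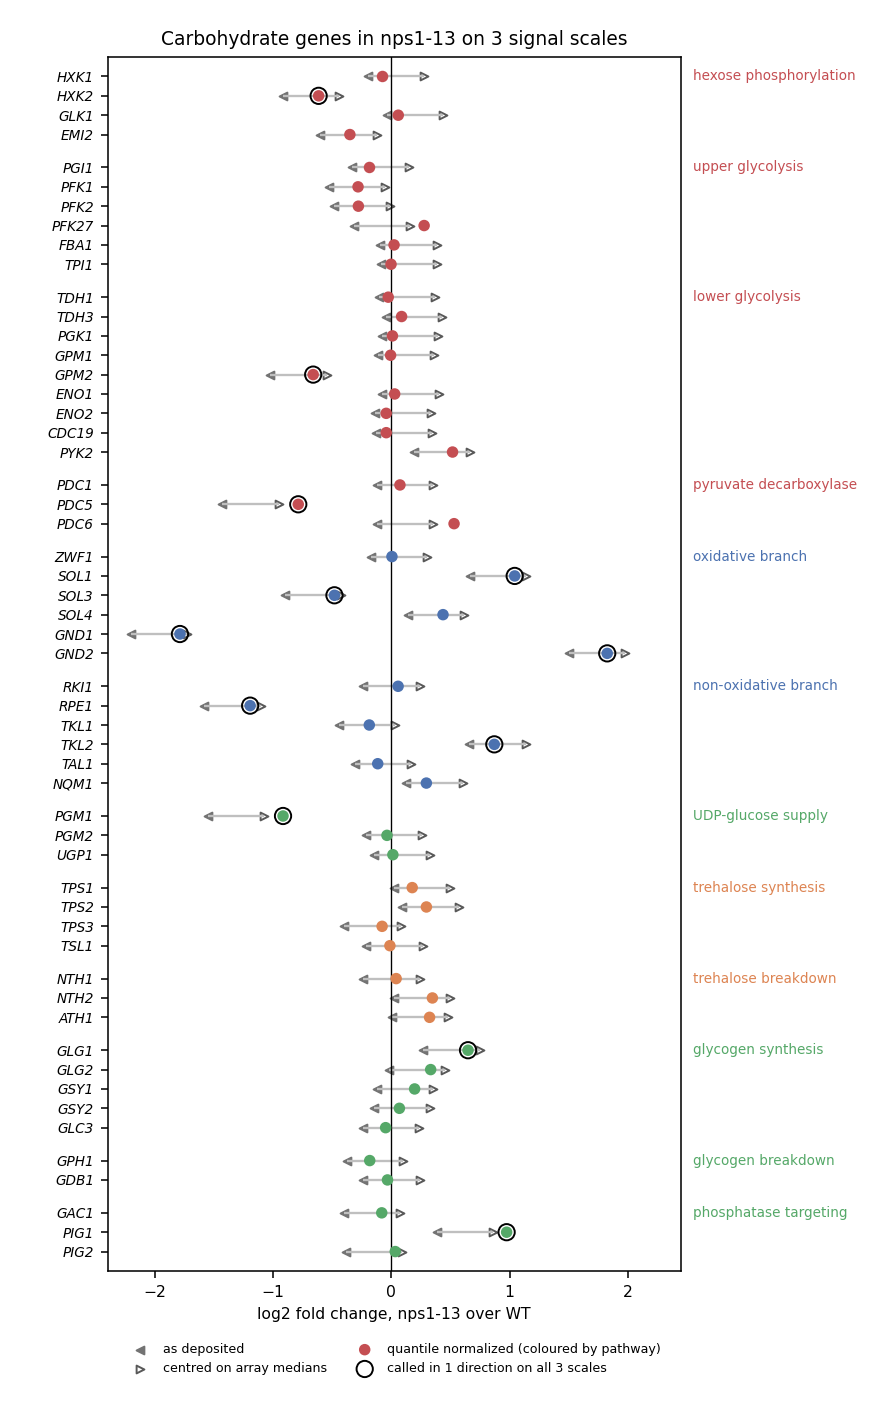
Log2 fold change, nps1-13 over WT, of each of the 54 genes in the order of the pathways (n = 2 arrays per strain). Filled circles are quantile-normalized values, left-pointing triangles the deposited and right-pointing triangles the centred ones; rings mark the 12 genes called in 1 direction on all 3 scales. The circles of the oxidative branch span -1.79 to 1.83, whereas those of trehalose lie between -0.08 and 0.35.

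The widest changes were in the oxidative branch of the pentose phosphate pathway, in the pair of genes for 6-phosphogluconate dehydrogenase, the second NADPH-making step. GND1, the main isoform, had a signal of 1751 and 1703 on the nps1-13 arrays, against 8121 and 7769 on the WT arrays. GND2, the minor isoform, had 9905 and 10435 in nps1-13, against 3761 and 3423 in WT. The arrays of the strains did not overlap for either gene, and the paralogs moved in opposite directions. After quantile normalization the log2 fold change was -1.79 for GND1 (SE, the standard error, 0.05; limma adjusted p = 2.6e-08) and 1.83 for GND2 (SE 0.05; limma adjusted p = 2.5e-08). The ratio of mean deposited signals was 0.217 for GND1 and 2.83 for GND2, and the centred log2 fold changes were -1.73 and 1.98. Both kept their sign and their call in each alternative run.

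At the other oxidative steps the changes were smaller and differed in sign between genes. ZWF1, glucose-6-phosphate dehydrogenase, which commits glucose 6-phosphate to the pathway, had 13865 and 13618 in nps1-13, against 16274 and 14767 in WT, at a log2 fold change of 0.0056 after quantile normalization (limma adjusted p = 0.89). SOL3, the main 6-phosphogluconolactonase of the next step, fell, with 2386 and 2269 in nps1-13, against 4480 and 4222 in WT (log2 fold change -0.48, limma adjusted p = 2.7e-05). Its paralog SOL4 had 8030 and 8616, against 7877 and 7234, which was 0.44 after quantile normalization (adjusted p = 9.7e-05) and 0.14 as deposited (adjusted p = 0.16). SOL4 is thus not counted among the genes that rose. SOL1, related in sequence to these lactonases, rose, with 5892 and 5575 in nps1-13, against 3682 and 3549 in WT (log2 fold change 1.04, SE 0.05; limma adjusted p = 3.2e-07).

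In the non-oxidative branch, RPE1 fell and TKL2 rose. RPE1, the only ribulose-5-phosphate epimerase, had 2385 and 2292 on the nps1-13 arrays, against 7297 and 6717 on the WT arrays. Its log2 fold change was -1.19 (SE 0.05; limma adjusted p = 1.1e-07), while RKI1, the ketol-isomerase that uses the same ribulose 5-phosphate, had 8197 and 7197, against 9394 and 8718, and 0.06 (adjusted p = 0.26). The transketolase gene TKL2, the minor form, had 14649 and 14532 in nps1-13, against 9467 and 9020 in WT, at a log2 fold change of 0.87 (SE 0.04; limma adjusted p = 1.6e-07). The major form TKL1 had 7902 and 7599, against 10875 and 10240, which was -0.19 after quantile normalization and 0.03 centred. In the transaldolase pair, NQM1, the minor form, was at 0.30 and TAL1 at -0.11, each past the threshold after quantile normalization but not on all 3 scales. The neighbour of TKL2 on chromosome II is LYS2, of which 1 copy is deleted in BY4743. LYS2 had 1371 and 1227 in nps1-13, against 1371 and 1208 in WT. Its log2 fold change was 0.63 after quantile normalization (limma adjusted p = 2.8e-05) and 0.49 centred (adjusted p = 8e-05). As deposited it was 0.01 (adjusted p = 0.94), so LYS2 did not pass on all 3 scales. Whether that deletion touches the TKL2 value was not tested.

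**Figure D3:**
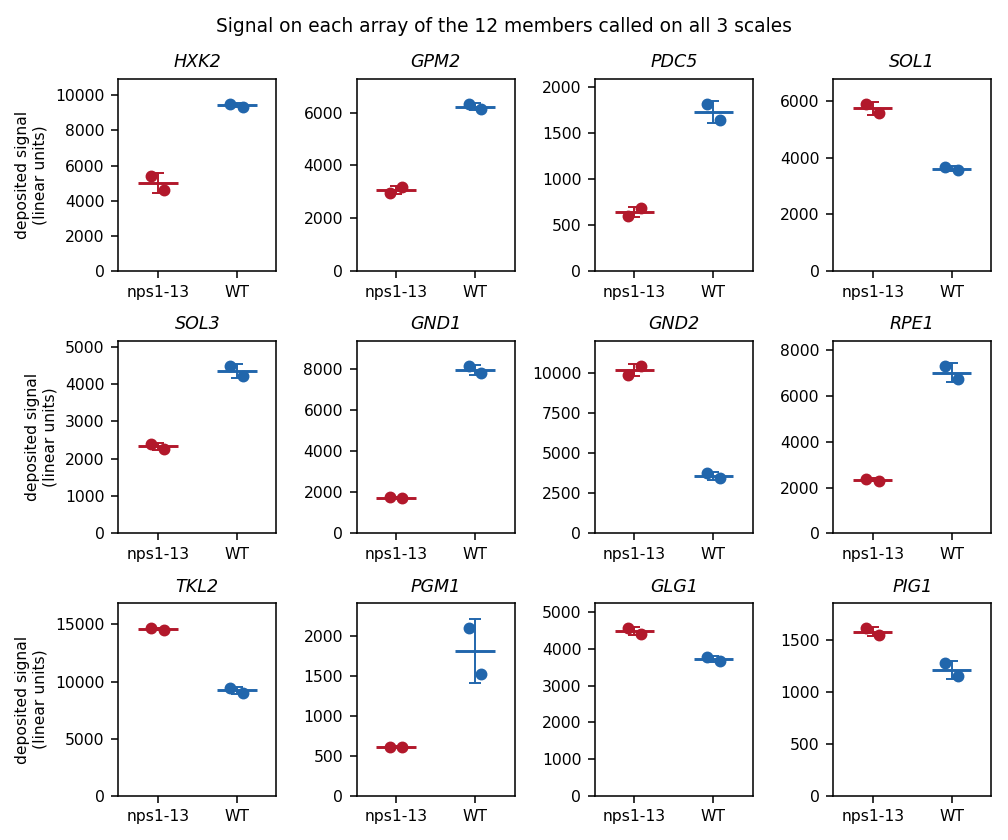
Deposited signal on each array for the 12 genes that passed on all 3 scales, with nps1-13 in red on the left and WT in blue on the right of each panel. Points are arrays, lines are means and bars are the SD (n = 2); every axis starts at 0. The arrays of the strains do not overlap in any panel, and the gap is narrowest for GLG1 and PIG1. The genes were picked for passing on this scale too. Of all genes, 13.6% were higher and 72.5% lower in nps1-13 without overlap as deposited.

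Among the hexose-phosphorylating enzymes, HXK2, the hexokinase that dominates in glucose and also serves glucose repression, fell. It had 5389 and 4613 in nps1-13, against 9504 and 9351 in WT, at a log2 fold change of -0.61 (SE 0.06; limma adjusted p = 1.3e-05). HXK1, the form raised when glucose is absent, had 15167 and 15691, against 17842 and 17502, which was -0.07 after quantile normalization (adjusted p = 0.064), -0.20 as deposited and 0.28 centred, so its direction depends on the scale. The glucokinase GLK1 had 0.06, and its paralog EMI2 -0.35 (adjusted p = 4.4e-05), which did not pass when centred (adjusted p = 0.07).

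The trunk of glycolysis had small fold changes after quantile normalization, and its calls turned with the scale. FBA1, TPI1, TDH1, TDH3, PGK1, GPM1, ENO1, ENO2 and CDC19, the enzymes from aldolase to pyruvate kinase, had log2 fold changes between -0.04 and 0.09 after quantile normalization, between -0.14 and -0.05 as deposited and between 0.34 and 0.43 centred. The signals of these genes lie at the bright end of the arrays. TDH1 had 21198 on WT array 1, where the highest signal of any probe set was 23097. Whether signals so near the top show a change in full was not tested. The 497 bright genes had medians of -0.0024, -0.18 and 0.30 on the same scales. Positive centred values were thus common to the bright genes. Of the 9, TDH3 alone passed after quantile normalization, as higher (limma adjusted p = 0.042), and as deposited ENO2 and CDC19 passed as lower (adjusted p = 0.022 and 0.032). When centred, all 9 passed as higher (adjusted p between 0.00032 and 0.0046), and so did all 9 with the arrays scaled to 1 trimmed mean. PFK1 and PFK2, the subunits of phosphofructokinase, which acts in glycolysis alone, were both at -0.28 after quantile normalization (adjusted p = 9.0e-05 and 1.1e-04 from limma), but at -0.05 and -0.0093 centred, where they did not pass. PGI1, the isomerase, had -0.18, and PFK27, a kinase that makes the activator of phosphofructokinase, 0.28 with an adjusted p of 0.056.

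Side forms of the lower part stood away from the trunk. GPM2, a homolog of phosphoglycerate mutase, fell, with 2955 and 3178 in nps1-13, against 6331 and 6135 in WT (log2 fold change -0.66, SE 0.07; limma adjusted p = 2.4e-05). PDC5, a pyruvate decarboxylase raised when PDC1 is lost, fell, with 603 and 684, against 1816 and 1645 (log2 fold change -0.79, SE 0.09; limma adjusted p = 4.9e-05). The main gene PDC1 had 12918 and 14039, against 15317 and 13980, where the strains overlap as deposited, and 0.07 after quantile normalization. PDC6, the minor form, had 945 and 978, against 1035 and 1054, and the sign of its change differed between the scales, at 0.53 after quantile normalization and -0.12 as deposited. PYK2, the pyruvate kinase isoform of low glycolytic flux, had 6889 and 6313, against 6005 and 5543, at 0.52 (adjusted p = 5.7e-06), but did not pass as deposited (0.19, adjusted p = 0.082).

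In the supply of UDP-glucose, from which both storage sugars are built, 1 of the 3 genes passed on all 3 scales. PGM1, the minor phosphoglucomutase, had 616 and 607 on the nps1-13 arrays, against 2099 and 1527 on the WT arrays, and fell, at a log2 fold change of -0.92 (SE 0.11; limma adjusted p = 6.0e-05). On the log2 scale the WT arrays differ more from each other for PGM1 than for the other genes that moved. Leaving out each array in turn gave log2 fold changes of PGM1 between -1.11 and -0.75. PGM2, the main form, had 13426 and 13284, against 15868 and 15192 (-0.04), and UGP1, the UDP-glucose pyrophosphorylase, 0.01 after quantile normalization. Both passed as lower as deposited (-0.22 and -0.15, limma adjusted p = 0.0018 and 0.03). Centred, both passed as higher (0.26 and 0.33, limma adjusted p = 0.0043 and 0.0028).

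None of the 7 trehalose genes passed on all 3 scales, and their calls turned with the scale. As deposited TPS3, TSL1 and NTH1 passed as lower (-0.40, -0.21 and -0.24), and centred 6 of the 7 passed as higher. The subunits of the synthase complex, TPS1, TPS2, TPS3 and TSL1, had log2 fold changes of 0.18, 0.30, -0.08 and -0.01 after quantile normalization, of which the first 2 passed there and as deposited did not (0.02 and 0.09). The trehalases NTH1, NTH2 and ATH1 had 0.04, 0.35 and 0.32, and the deposited signals of NTH2 and ATH1 overlapped between the strains. TPS1 itself had 15394 and 15581 in nps1-13, against 15840 and 14739 in WT, so the strains overlapped as deposited.

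In glycogen metabolism the enzymes moved little after quantile normalization. The 2 genes that rose act at the start of the chain and on the phosphatase that switches the synthase on. GLG1, a glycogenin that primes new chains, had 4561 and 4424 in nps1-13, against 3782 and 3660 in WT, at a log2 fold change of 0.65 (SE 0.05; limma adjusted p = 6.2e-06). Its paralog GLG2 had 4672 and 4269, against 4886 and 4208, overlapping as deposited, and 0.33 after quantile normalization. PIG1, a targeting subunit of the type 1 phosphatase Glc7, had 1616 and 1554, against 1279 and 1153, with 0.98 (SE 0.06; limma adjusted p = 1.4e-06). As deposited, GLG1 and PIG1 stood at only 0.27 and 0.38, and their calls there depended on single arrays. Without nps1-13 replicate 1 the adjusted p on the deposited scale was 0.26 for GLG1 and 0.11 for PIG1, and without nps1-13 replicate 2 it was 0.19 and 0.063. GLG1 also missed it without WT replicate 2 (adjusted p = 0.055). The related targeting subunit GAC1, with 5615 and 5199, against 7377 and 6889, had -0.08, and PIG2 had 0.03. PIG2 lies on chromosome IX, whose 187 genes had a median log2 fold change of 0.41 after quantile normalization, where the other chromosomes except X lay between -0.13 and 0.02. PIG2 thus stood below the median of its chromosome, on which STH1 also lies; the part of the chromosome in these values was not tested. The genes of chromosome X, which holds TDH1, RPE1 and GLG2, had a median of 0.18.

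The synthases GSY1 and GSY2 had log2 fold changes of 0.20 and 0.07, the branching enzyme GLC3 -0.05, and the enzymes of breakdown, the phosphorylase GPH1 and the debranching enzyme GDB1, -0.18 and -0.03 after quantile normalization. Of these 5 genes, GSY1 and GPH1 passed there, and none did so in 1 direction on all 3 scales.

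Among 19 pairs of paralogs, the difference of the log2 fold changes after quantile normalization exceeded 1 in 3, GND2 over GND1 with 3.61, TKL2 over TKL1 with 1.06 and GAC1 over PIG1 with -1.06, and exceeded 0.5 in 9. In 8 pairs 1 gene passed on all 3 scales and the other did not, in 1 pair, GND1 and GND2, both passed in opposite directions, and in 0 pairs both passed in the same direction. Of all genes, 40.4% passed on all 3 scales in either direction, and their median absolute log2 fold change after quantile normalization was 0.33. Whether these counts differ from those of pairs of unrelated genes was not tested. The remaining pairs past 0.5 went both ways. In SOL3 and SOL4, CDC19 and PYK2, and PGM1 and PGM2 the gene named second was the higher one, by 0.92, 0.56 and 0.88. In HXK1 and HXK2, GPM1 and GPM2, and PDC1 and PDC5 the gene named second was the lower one, by 0.54, 0.65 and 0.86. The sizes depended on the scale. As deposited and centred alike, PGM2 over PGM1, PDC5 over PDC1 and SOL4 over SOL3 also passed 1 in size, at 1.33, -1.31 and 1.04. On these scales GND2 over GND1 stood at 3.70 and TKL2 over TKL1 at 1.10, but GAC1 over PIG1 at -0.78 and PYK2 over CDC19 at 0.32. The differences between paralogs are given as descriptions and were not tested. Pairs of closely similar sequence, such as ENO1 and ENO2 or TDH1 and TDH3, can share transcript on the probes, so their values may not be independent.

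**Figure D4:**
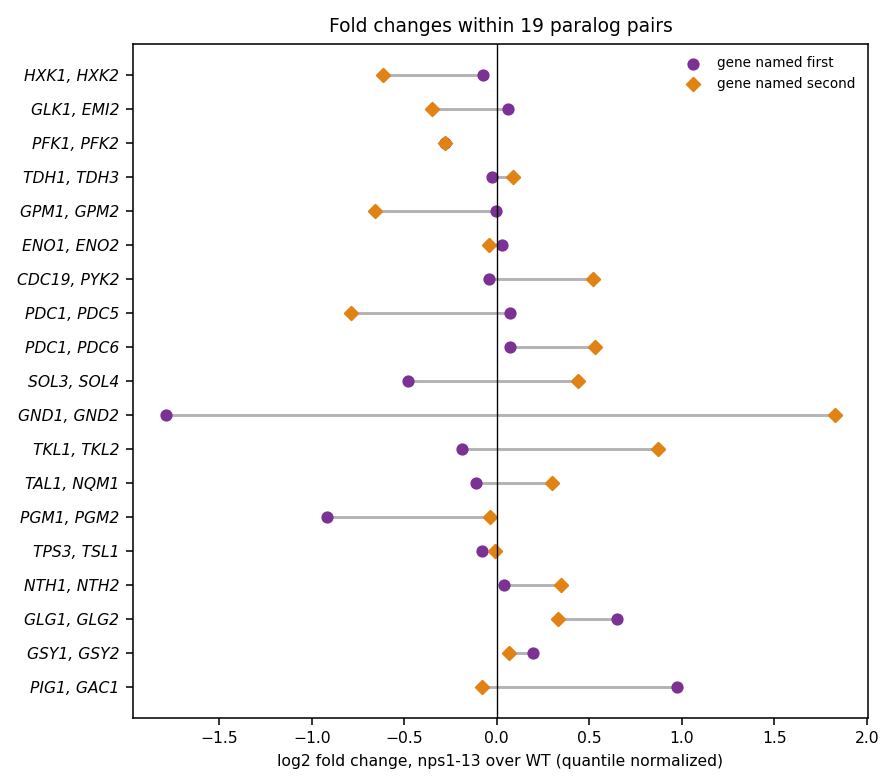
Log2 fold change after quantile normalization, nps1-13 over WT, of both genes in each of 19 paralog pairs (n = 2 arrays per strain). Circles are the genes named first and diamonds those named second, joined by a line as long as their difference. The line of GND1 and GND2 spans 3.61, whereas PFK1 and PFK2 coincide.

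The neighbours of the genes that moved were read from the order of genes in the RefSeq annotation. Of the 24 measured neighbours of the 12 genes, 6 passed on all 3 scales in the same direction as the member, 2 in the opposite direction and 16 did not pass. The share that passed in either direction, 33.3%, is below the 40.4% of all genes, so these counts show nothing particular to the neighbours. GND1 lies beside SSP1, which had a log2 fold change of -2.12, and HXK2 beside FZF1 with -1.23. GND2 lies between COQ6 with 0.33 and MTM1 with -0.05, neither of which passed on all 3 scales.

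Other enzymes and regulators of these pathways formed a list of 29 genes, of which 27 were measured under these names. On all 3 scales 5 rose (18.5%, against 9.41% of all genes) and 7 fell (25.9%, against 31.0%). GIP2, a further putative partner of the Glc7 phosphatase, had 4682 and 5097 in nps1-13, against 2044 and 1805 in WT, at a log2 fold change of 1.79 (SE 0.07; limma adjusted p = 1.4e-07). STB5, an activator of genes of NADPH supply, had 1291 and 1117, against 985 and 830, and rose by 1.03 on the log2 scale. PFK26 and FBP26, which make and break down the activator of phosphofructokinase, rose by 0.53 and 0.68, and IGD1, an inhibitor of glycogen debranching, by 0.40. PFK26 lies on chromosome IX and FBP26 on chromosome X, whose genes had the medians of 0.41 and 0.18 given above, and the part of the chromosome in their values was not tested. On the deposited scale STB5, PFK26 and FBP26 did not pass without nps1-13 replicate 1 (adjusted p = 0.18, 0.14 and 0.11), nor did PFK26 without nps1-13 replicate 2 (adjusted p = 0.23).

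The genes that fell include transcription factors with a part in these pathways. GCR1, the activator of glycolytic genes, had 1525 and 1376 in nps1-13, against 3282 and 2824 in WT (log2 fold change -0.56, limma adjusted p = 2.6e-05). PDC2, needed for expression of PDC1 and PDC5, had 495 and 449, against 1203 and 1090 (-0.63, adjusted p = 7.2e-05). GCR2 and TYE7, which also activate glycolytic genes, were higher after quantile normalization, at 0.56 and 0.31 (limma adjusted p = 2.3e-05 and 0.0082), and did not pass as deposited (0.13 and -0.04). MSN4, a stress activator of storage carbohydrate genes, had 1101 and 912, against 2600 and 2239 (-0.69), whereas its paralog MSN2 was at 0.41 and did not pass as deposited. XKS1, xylulokinase, and SHB17, a bisphosphatase that feeds the non-oxidative branch, fell by 0.65 and 0.58. RAP1, a partner of Gcr1 at glycolytic promoters, and the kinase gene RIM15 fell by 0.16 and 0.25 and were at -0.65 and -0.90 as deposited.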

How the data were processed

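Total RNA was measured on 4 one-colour arrays. The deposited intensity values are linear probe set signals, which the authors made in GCOS, the scanner maker's software, with global scaling. Their trimmed means over the 5558 deposited probe sets differ between arrays (3316, 3158, 4285 and 3941), whereas the methods state 1 target for every array. Whether that target was set on these probe sets alone is not stated. Gene names came from the platform annotation matched to RefSeq R64; 5345 of 5558 probe sets have 1 symbol and 213 are unnamed here. For the 2 genes with several probe sets the brightest was used.

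Log2 signals were quantile normalized and tested with limma 3.58.1 (R 4.3.3, eBayes with a trend) and Benjamini-Hochberg adjustment, nps1-13 minus WT. On the deposited scale limma estimated an infinite prior, so that every gene's spread there is the trend's. Alternatives were other scalings, a minimum signal, an added offset, no trend, replicate blocks and leaving out each array. The members and lists were chosen with earlier results of these data known. Signals are printed for genes that passed on all 3 scales with an absolute log2 fold change of at least 0.5 and for their paralogs; others were added after their values were seen. The fit was tested on simulated data. The number of arrays limits the precision. Same-numbered arrays deviated with r = -0.09 across genes, so the numbers were not taken as pairs. No sequences were used here.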

Additional observations from a re-analysis of the deposited data

How the results depend on the processing

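The 12 genes that passed on all 3 scales kept their direction in every alternative run. The scale of the arrays decided the counts. Higher and lower were 5 and 29 of the 54 genes as deposited and 37 and 7 centred, and 32 and 10 with the arrays scaled to 1 trimmed mean (59.3% and 18.5%, against 33.0% and 43.2% of all genes). Of all genes 503 were higher and 3435 lower as deposited (1946 and 2016 after quantile normalization). The median log2 fold change was -0.15, 0.33 and 0.20 for the 54 genes as deposited, centred and by trimmed mean, -0.13, 0.35 and 0.22 for glycolysis, -0.21, 0.27 and 0.14 for pentose phosphate, -0.22, 0.26 and 0.13 for glycogen, and 0.0031, 0.48 and 0.35 for trehalose. With deposited signals, 1 of the 54 genes had a ratio above 2 and 5 below 0.5, beside 106 and 892 of all genes (254 and 256 after quantile normalization). Of genes that passed on at least 1 of the 2 scales compared, signs against quantile normalization changed as deposited for PFK27 (-0.32), TDH3 (-0.047), PDC6 (-0.12), ZWF1 (-0.17), RKI1 (-0.24), UGP1 (-0.15), NTH1 (-0.24), GLG2 (-0.022), GSY1 (-0.12) and PIG2 (-0.38). They changed when centred for HXK1 (0.28), PGI1 (0.15), TPI1 (0.39), TDH1 (0.37), GPM1 (0.36), ENO2 (0.34), CDC19 (0.34), TKL1 (0.031), TAL1 (0.17), PGM2 (0.26), TSL1 (0.27), GLC3 (0.23), GPH1 (0.10) and GDB1 (0.24). By trimmed mean they changed for HXK1 (0.15), PGI1 (0.016), TPI1 (0.26), TDH1 (0.24), GPM1 (0.23), ENO2 (0.20), CDC19 (0.21), TAL1 (0.036), PGM2 (0.13) and TSL1 (0.13). Signs also changed for genes that passed on neither scale: GLK1, FBA1, PGK1, ENO1, PDC1 and GSY2 as deposited, TPS3 and GAC1 centred, and GLC3, GDB1 and PIG2 by trimmed mean. By construction the deposited, centred and trimmed-mean fold changes differ from each other by 1 constant; why they differ from the quantile-normalized ones was not tested.

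Leaving out each array in turn gave 3 to 8 genes that rose on all 3 scales and 7 that fell. The 8 came without WT replicate 1, where PYK2, SOL4 and NQM1 passed too. GLG1 and PIG1 were lost without nps1-13 replicate 1 or 2, and GLG1 also without WT replicate 2 and without the trend (adjusted p = 0.093 from limma), each on the deposited scale. Of all genes, 284 to 568 rose on all 3 scales, the lowest without nps1-13 replicate 1. The range was 1 to 2 for genes with a ratio above 2, 2 to 3 for those below 0.5, and -0.039 to 0.0027 for the median of glycolysis. With the replicate number as a block, 15 genes were higher and 14 lower after quantile normalization (1878 and 1941 of all genes) and 7 and 8 on all 3 scales (632 and 1617 of all genes), where PYK2, SOL4 and EMI2 passed as well and TDH3 was lost after quantile normalization (adjusted p = 0.071 from limma); the numbers are not known to pair the arrays. Centred, same-numbered arrays correlated at -0.12. With the numbers crossed, chosen after seeing the data, 17 genes were higher and 14 lower after quantile normalization (2043 and 2096 of all genes). On all 3 scales the crossed run gave 4 and 7 (377 and 1723 of all genes), and GLG1 was lost as deposited (limma adjusted p = 0.21). PFK26 was lost as deposited without the trend and with the numbers crossed (limma adjusted p = 0.13 and 0.10). The dimmest of the 54 genes, PFK27, had a mean signal of 434, where 167 to 213 probe sets per array were under 100.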
